A study of Mus musculus with 3 samples.

Results

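In RNA from the nuclei of mouse macrophages, 23 protein-coding genes had at least 80% of their estimated transcript level in isoforms that the annotation classes as retained_intron. They were chosen by measured values. A gene was taken if it has an isoform annotated as protein_coding, if its level was at least 5 TPM in all 3 libraries, and if isoforms annotated as retained_intron made up at least 80% of its summed isoform TPM in each library. TPM is a level per transcript length, scaled to the same sum in every library. These values come from tables with the columns that RSEM writes, which also give expected counts, the estimated number of reads of each isoform. A separate estimate from the same libraries, with the columns that kallisto writes, is called kallisto-format TPM below. The 23 genes were 0.56% of the 4107 genes that met the first 2 conditions and have a retained_intron isoform. In all, 5921 genes met those conditions, of 55536 annotated genes. Because the share of TPM chose the genes, its values below are a description and support nothing by themselves.

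The cells were macrophages grown from bone marrow of C57BL/6J mice. They received 100 ng/ml of lipid A, the part of lipopolysaccharide that TLR4 recognises, for 12 h, were kept without it for 12 h, and received 100 ng/ml again for 15 min. Total RNA of the nuclear fraction, which the labels also call nucleoplasmic, was sequenced after removal of ribosomal RNA, with an input of 500 ng of RNA in replicate 2 and 1 µg in the others. The 3 libraries are numbered as biological replicates of 1 group and carry 1 donor identifier. Age and sex were not collected, and no source names a mouse for each culture, so the spread between libraries may be partly technical. The 3 libraries are 1 condition with no untreated group, so nothing below is a response to lipid A and no test between groups was possible.

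Most mammalian genes are transcribed with introns that the spliceosome removes, largely while the RNA is still being made. An intron that stays in an otherwise processed transcript usually brings in a stop codon or holds the RNA in the nucleus, where it can be spliced later or degraded. Transcripts of this kind are known in many genes for splicing factors, which use them to set their own level, and in activated immune cells. GENCODE gives the class retained_intron to transcript models that hold intronic sequence of a coding isoform of the same gene. Many of these models are partial: they begin or end inside an intron. In nuclear RNA, reads of a transcript not yet spliced and reads of a stable intron-retaining transcript cover the same bases and cannot be told apart here.

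The libraries held 23826101, 19312032 and 21730342 expected counts over annotated genes, and the 23 genes took 0.394%, 0.447% and 0.389% of them. Over all genes, isoforms of the retained_intron class held 3.27%, 3.96% and 3.51% of the TPM. All 8 macrophage markers examined were at 1 TPM or more in every library, with means from 54.5 to 1616 TPM. Of 22 markers of granulocytes, dendritic cells, T, NK and B cells, erythroid cells and fibroblasts, only the erythroid gene Alas2 reached 1 TPM in all 3, with a mean of 2.21 TPM. Gene TPM was highest in replicate 2 for 17 of the 23 genes (73.9%), and so it was for 61.2% of the other 4084 genes with a retained_intron isoform. Replicate 2 was also the library with less input RNA, and the part of input in this difference cannot be told apart from that of the culture.

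**Figure D1:**
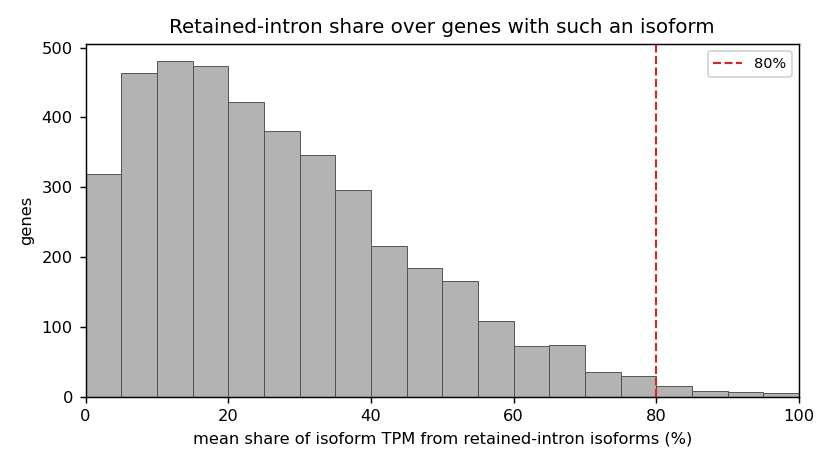
Number of genes (y axis) by mean share of isoform TPM from retained_intron isoforms (x axis, in bins of 5 percentage points) over the 4107 genes of at least 5 TPM that have such an isoform. The dashed line marks 80%: 37 genes have a mean at or above it, and 23 reach it in every library.

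A share this high was rare. Over the 4107 genes, 2369 had a mean share of at least 20%, 524 (12.8%) of at least 50%, 102 of at least 70% and 37 of at least 80%, as the histogram of shares shows. The median share over the 23 genes was 89.3% ± 1.66 (SD, n = 3 libraries), against 23.5% ± 0.429 over the other 4084, a gap that the choice of genes produced. In all 23, the isoform with the highest mean TPM was itself of the retained_intron class. Together they have 99 retained_intron, 64 protein_coding and 186 isoforms in all. Coding isoforms summed to a mean of less than 1 TPM in 9 of them. The genes nearest the threshold from above, by their lowest library, were Usp15 at 81.7%, Asb6 at 81.5% and Srsf11 at 80.3%. The nearest from below were Sept2 at 79.8%, Ms4a4b at 79.7% and Rpl5 at 79.4%, so the threshold falls within a continuous run of values.

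**Figure D2:**
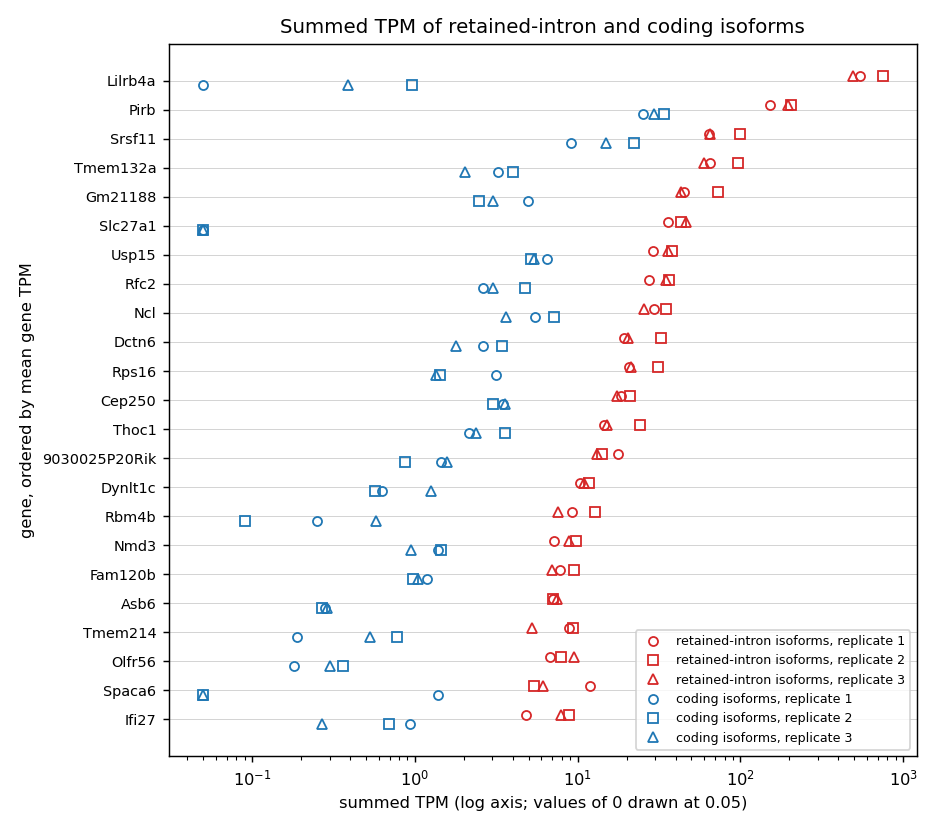
Summed TPM on a log axis for the retained_intron isoforms (red) and the coding isoforms (blue) of each gene, with 1 symbol per library. In every library the red symbols lie to the right of the blue ones, as the selection requires; sums of 0 are drawn at 0.05.

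The most abundant of the genes encode immune receptors of the leukocyte immunoglobulin-like family. Lilrb4a (ENSMUSG00000112148.1, chr10:51490956-51496611, plus strand, mm10) encodes an inhibitory receptor of myeloid cells. Its retained_intron isoforms summed to 540.8, 749.3 and 492.6 TPM in replicates 1, 2 and 3, and its 4 coding isoforms to 0, 0.96 and 0.39 TPM. Replicate 2 was the highest library and the 3 shares, 94.5%, 94.9% and 94.5%, were nearly equal. The rest of its TPM, a mean of 33.0, was in 1 isoform annotated as a target of nonsense-mediated decay, the pathway that removes transcripts with an early stop codon. The leading model, Lilrb4a-206, had 223.2, 354.6 and 190.1 TPM and covers the 3′ part of the gene. Of its 1279 bases, 778 lie in no exon of a coding isoform of Lilrb4a. The second, Lilrb4a-209, holds introns 3, 4 and 5 of the coding isoform whole and had 140.7, 181.0 and 130.8 TPM.

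Lilrb4a shares its sequence with another annotated gene. Gm49339, a coding gene on the same strand, runs over the whole of Lilrb4a, and every 31-base stretch of the longest Lilrb4a coding isoform also occurs in it (100%). Gm49339 had 113.6, 121.9 and 102.2 TPM and no retained_intron isoform. Its exons also cover 958 bases (74.9%) of the leading retained_intron model, Lilrb4a-206. Of the 31-base stretches of that model, 77.5% occur in transcripts of other genes. When the isoforms of both genes were pooled, retained_intron isoforms held 78.9%, 82.2% and 79.0% of the TPM, in place of 94.6% ± 0.246 on average. Only replicate 2 then reached 80%. Reads of spliced Lilrb4a exons, and of the shared part of Lilrb4a-206, could have been given to either gene. The near-absence of coding Lilrb4a isoforms cannot be told apart from such an assignment. The pooled share, 80.03% ± 1.90 on average, lay near the threshold.

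Pirb (ENSMUSG00000058818.13, chr7:3711409-3720391, minus strand), the paired immunoglobulin-like receptor B, is an inhibitory receptor for MHC class I on myeloid and B cells. Its retained_intron isoforms had 152.6, 204.5 and 197.2 TPM, and its single coding isoform had 25.1, 33.8 and 29.4 TPM. Replicate 1 was the lowest for both. The shares were 85.9%, 85.8% and 87.0% of TPM, 82.7% ± 0.947 of expected counts and 89.4% ± 2.09 of the kallisto-format TPM. Unlike most of the leading models, Pirb-202 is almost a full transcript: it has 14 exons, and 227 of its 2923 bases (7.77%) are intronic. Those 227 bases are 1 intron, number 6 of 14 in the coding isoform, which lies between coding exons. The 3 models that hold it made up 82.0% of Pirb TPM. A further intron, number 7, was held by a model with 17.7% of the TPM, and the first by models with 26.2%. The leading model shares 56.9% of its stretches with other genes, led by Gm14548 at 9.32 ± 3.15 TPM, so counts are uncertain within this family. Of the stretches inside intron 6, 41.6% also occur in transcripts of other genes.

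Introns of both receptor genes are shown whole because models with intron 6 held 82.0% of Pirb TPM and models with intron 3 held 36.2% of Lilrb4a TPM. Each is written 5′ to 3′ on the gene's strand, with the first 6 and the last 3 intron bases, the donor and acceptor splice sites, in capitals, from the mm10 transcript sequences of GENCODE M21.
Pirb intron 6, chr7:3716891-3717117: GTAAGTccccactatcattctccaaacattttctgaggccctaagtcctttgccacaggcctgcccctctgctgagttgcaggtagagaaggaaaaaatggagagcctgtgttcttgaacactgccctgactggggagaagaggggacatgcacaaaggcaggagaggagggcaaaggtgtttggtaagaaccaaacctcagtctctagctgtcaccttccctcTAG
Pirb intron 7, chr7:3716337-3716593: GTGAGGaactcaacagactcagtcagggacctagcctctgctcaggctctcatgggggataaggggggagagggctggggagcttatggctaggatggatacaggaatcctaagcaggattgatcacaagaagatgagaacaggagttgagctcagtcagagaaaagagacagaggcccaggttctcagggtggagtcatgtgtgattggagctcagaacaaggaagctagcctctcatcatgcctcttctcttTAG
Lilrb4a intron 3, chr10:51491719-51491860: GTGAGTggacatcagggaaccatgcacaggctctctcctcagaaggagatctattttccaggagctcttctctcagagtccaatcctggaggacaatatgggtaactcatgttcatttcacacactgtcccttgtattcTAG
Intron 6 of Pirb and intron 3 of Lilrb4a open with donor letters, GTAAGT and GTGAGT,, both common in mammalian genes.

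Ifi27 (ENSMUSG00000064215.13, chr12:103434211-103440239, plus strand), an interferon-induced gene for a small membrane protein, was the least abundant of the 23, at 5.76, 9.55 and 8.13 TPM. With 84, 91 and 104 expected counts it rests on few reads. Its share had the largest spread of all 23 genes, 83.9%, 92.8% and 96.7% (SD 6.56 percentage points). The share of expected counts ran from 75.7% in replicate 1 to 95.1% in replicate 3. The leading model, Ifi27-209, has 527 bases, of which 49 (9.30%) are intronic. Its TPM of 2.19, 4.91 and 3.91 came with deposited intervals of 0.922 to 3.05, 2.71 to 6.03 and 2.41 to 4.82, which overlap between libraries. A list of 20 interferon-stimulated genes, which does not name Ifi27, held none of the 23, where 0.56% of all 4107 genes passed, so the count is near the background. The median share over that list was 27.9%, near the 23.6% of all 4107 genes.

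**Figure D3:**
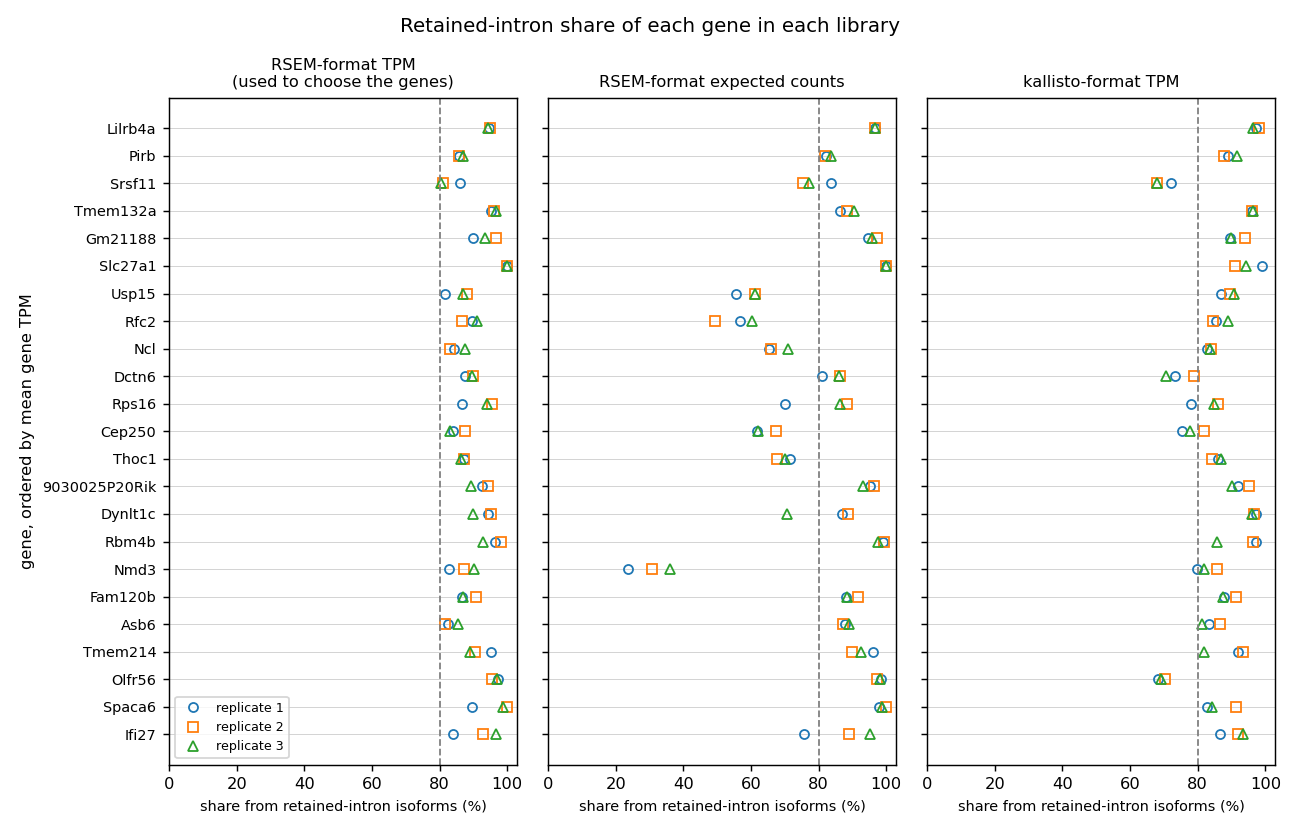
Share of each gene from retained_intron isoforms in each library (symbols), by RSEM-format TPM, by expected counts and by kallisto-format TPM, with genes ordered by level. The first panel was used to choose the genes, so all symbols lie right of the 80% line; in the second, Nmd3 falls to between 23.7% and 36.1%, and in the third Srsf11 and Olfr56 are near 69%.

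Srsf11, Ncl, Rps16, Rbm4b, Thoc1 and Nmd3 are described next, ordered by hand by what they encode. Srsf11 (ENSMUSG00000055436.18, chr3:158010473-158036639, minus strand) encodes a splicing factor with an arginine- and serine-rich domain. Its 11 retained_intron isoforms summed to 64.6, 100.1 and 64.9 TPM and its 5 coding isoforms to 9.16, 22.2 and 15.0 TPM. Replicate 2 was highest for both. The level was spread over many models: the leading one, Srsf11-208, took 26.2% of the TPM, spans the first 45.5% of the gene and consists of intronic sequence over 1988 of its 2415 bases. By kallisto-format TPM the share was 72.0%, 68.1% and 67.8%, under 80% in each library and the lowest mean of the 23 genes. Among the 7 other Srsf genes of at least 5 TPM with a retained_intron isoform, shares ran from 16.6% in Srsf4 to 62.4% in Srsf3. Over a list of 69 genes for splicing factors and SR or hnRNP proteins, the median share was 39.97%, against 23.6% over all 4107, and Srsf11 was the one that passed.

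Ncl (ENSMUSG00000026234.12, chr1:86344719-86359400, minus strand) encodes nucleolin, an abundant nucleolar protein of ribosomal RNA production. Its retained_intron isoforms had 29.5, 34.8 and 25.5 TPM and its coding isoforms 5.47, 7.14 and 3.62 TPM. Replicate 2 was again highest and replicate 3 lowest for both. Nearly all of this is 1 model: Ncl-202 had 25.8, 32.7 and 20.9 TPM, or 74.5% of the gene. It starts near the annotated start of the gene and stops 60.7% of the way through, and it keeps introns 9 and 10 of the 13 in the coding isoform. By expected counts the share was 67.4% ± 3.03, with 3072 bases in the model and 8202 in the longest coding isoform. The gene hosts small RNAs in other introns. None of them overlaps the leading model. Other retained_intron models overlap the snoRNA Snora75 by 133 bases, the miRNA mmu-mir-3535 by 83 and the snoRNA Gm24148 by 56.

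Rps16 (ENSMUSG00000037563.15, chr7:28350652-28353155, plus strand) encodes a protein of the small ribosomal subunit. Its 2 retained_intron isoforms had 20.6, 31.2 and 21.3 TPM, and its coding isoform had 3.17, 1.42 and 1.35 TPM. In replicate 1 the coding level was highest and the share lowest, at 86.7% against 95.7% and 94.0%. Ribosomal protein genes as a class were at the other end: the median share over 64 of them was 13.8%, and over the 26 other Rps genes with such an isoform it was 12.0%. The highest of those 26 was Rps20 at 78.8% ± 5.41. The leading Rps16 model has 518 bases, 68 of them intronic, and 74.8% of its 31-base stretches also occur in the processed pseudogene copy Rps16-ps2, so its reads could be shared. Intron 3 is held whole by the other model, which had 18.6% of Rps16 TPM.

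The introns kept by Ncl and Rps16 are shown as short introns that a model of the gene holds whole, with the splice sites in capitals as above.
Ncl intron 10, chr1:86352320-86352509: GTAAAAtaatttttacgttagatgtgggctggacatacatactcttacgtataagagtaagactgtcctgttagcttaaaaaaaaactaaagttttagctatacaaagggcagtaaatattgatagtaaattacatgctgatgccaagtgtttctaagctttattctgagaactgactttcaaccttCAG
Rps16 intron 3, chr7:28352274-28352362: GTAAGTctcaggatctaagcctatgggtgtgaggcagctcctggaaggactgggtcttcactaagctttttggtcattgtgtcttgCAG
The Ncl intron is 32.6% G and C and the Rps16 intron 49.4%.

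Rbm4b (ENSMUSG00000033760.17, chr19:4756497-4767065, plus strand) encodes an RNA-binding protein related to RBM4, a regulator of splicing and translation. Its retained_intron isoforms had 9.21, 12.9 and 7.54 TPM and its coding isoforms 0.25, 0.09 and 0.58 TPM. The coding value was lowest in replicate 2, where the retained_intron value was highest. Shares of 95.9% by TPM, 98.6% by expected counts and 93.2% by kallisto-format TPM were close to each other. The leading model, Rbm4b-206, is a single exon of 5670 bases, 3.18 times the longest coding isoform, that runs to the end of the gene and holds an intron of 2696 bases, the longest among these genes. Of its length, 54.1% lies opposite a model of unclear status, Gm37206, which had a mean of 0.157 TPM. Rbm4, the near relative, had a share of 39.0% ± 4.81.

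Thoc1 (ENSMUSG00000024287.8, chr18:9957906-9995489, plus strand) encodes a subunit of the THO complex, which couples transcription to mRNA export. Its 11 retained_intron isoforms summed to 14.6, 24.3 and 15.2 TPM and its 2 coding isoforms to 2.16, 3.6 and 2.39 TPM. The shares of 87.1%, 87.1% and 86.4% had an SD of only 0.403 percentage points although the level in replicate 2 was well above the others. By expected counts the share was 69.8% ± 1.85. Thoc1-211, the leading model, took 25.8% of the TPM and 21.6% of it lies opposite the 3′ part of Usp14, a gene at 19.9 ± 4.02 TPM on the other strand. Whether the counting used the strand is not stated, so reads in that stretch cannot be assigned to either gene. Of the stretches of the leading coding isoform, Thoc1-201, 52.1% occur in reverse in other genes, against 20.3% for Thoc1-211. The open question of strand therefore bears on the coding level as well as on the retained_intron level. Shares of Thoc2 and Thoc7 were 33.1% and 14.9%, and over 5 mRNA export genes the median was 22.8%.

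Nmd3 (ENSMUSG00000027787.14, chr3:69721985-69756373, plus strand) encodes the adaptor that carries the large ribosomal subunit out of the nucleus. Its retained_intron isoforms had 7.16, 9.79 and 8.88 TPM and its coding isoforms 1.38, 1.45 and 0.95 TPM. By TPM the share was 82.9%, 87.1% and 90.3%. By expected counts it was 23.7%, 30.6% and 36.1%, so that most reads of the gene were given to other isoforms. By the mean over libraries no other of the 23 genes was under 50%, although Rfc2 was at 49.2% in replicate 2. The leading model has 746 bases and a mean of 61.7 counts, 12.4% of the counts of the gene, while its longest coding isoform has 9135 bases. TPM divides the counts of an isoform by its length, so the 2 scales differ where lengths do, as the plot of model lengths shows.

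**Figure D4:**
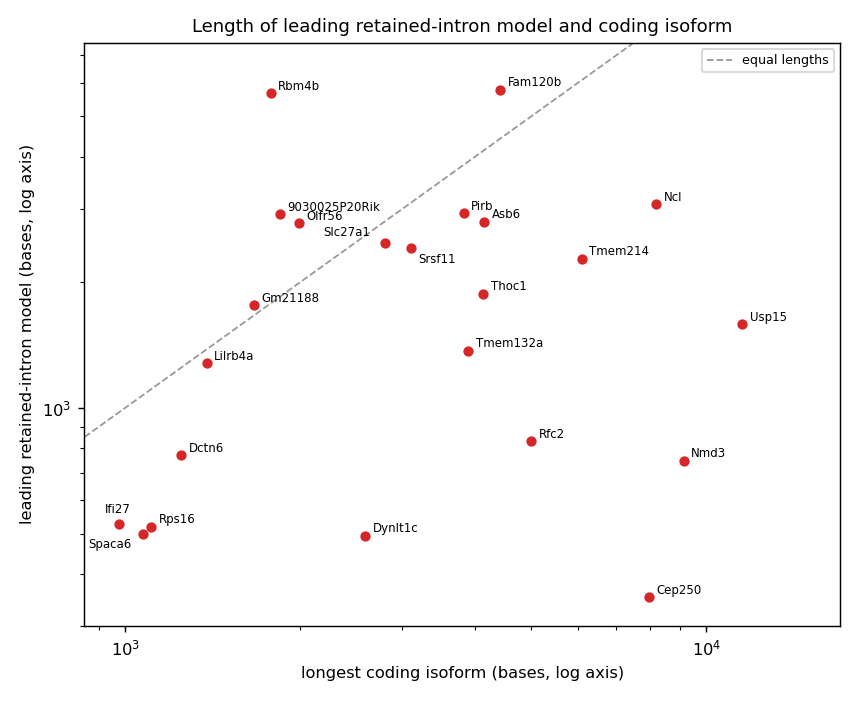
Length in bases of the leading retained_intron model (y axis, log) against that of the longest coding isoform (x axis, log), 1 point per gene; the dashed line marks equal lengths. Of the 23 genes 5 lie above the line, with Rbm4b farthest above it and Cep250, Nmd3 and Usp15 far below.

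The same contrast between TPM and counts was seen in genes of the cell skeleton and of DNA replication. Cep250 (ENSMUSG00000038241.16, chr2:155956458-155998900, plus strand) encodes C-Nap1, a linker between centrioles. Its retained_intron isoforms had 18.4, 20.96 and 17.5 TPM against 3.5, 3.01 and 3.59 TPM for coding isoforms. The leading part of this, 53.3% of the TPM of the gene, was Cep250-209, a model of 352 bases with 54.0 counts on average, only 2.48% of the counts. Its deposited intervals were 8.58 to 14.6, 9.66 to 17.2 and 7.67 to 13.1 TPM. A second model, Cep250-206, of 6361 bases, took 1232 counts and 28.7% of the TPM, so that retained_intron isoforms still held 63.7% ± 3.22 of the counts. Rfc2 (ENSMUSG00000023104.9, chr5:134581366-134601805, plus strand), a subunit of the clamp loader of DNA replication, had 27.4, 36.7 and 34.9 TPM in 3 retained_intron isoforms and 2.62, 4.74 and 3.04 TPM in its coding isoform. Its share was 89.1% ± 2.29 of TPM and 55.5% ± 5.74 of counts. Replicate 2, with the most coding TPM, had the lowest share on both scales. Rfc1, the other clamp loader gene of at least 5 TPM with such an isoform, had a share of 18.9% ± 4.36.

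Dctn6 and Dynlt1c serve the dynein motor that moves cargo along microtubules. Dctn6 (ENSMUSG00000031516.11, chr8:34090420-34108796, minus strand), a subunit of dynactin, had 19.2, 32.6 and 20.3 TPM in retained_intron and 2.63, 3.45 and 1.80 TPM in coding isoforms. Its share was 89.0% ± 1.32 by TPM and 84.5% ± 3.03 by counts, but 73.1%, 78.8% and 70.6% by kallisto-format TPM, under 80% in each library. The 6 other dynactin genes of at least 5 TPM with such an isoform had shares from 32.2% to 57.6%. Dynlt1c (ENSMUSG00000000579.14, chr17:6601671-6609774, plus strand), a light chain of dynein, had 10.4, 11.7 and 11.0 TPM in retained_intron isoforms and 0.63, 0.57 and 1.25 TPM in its coding isoform. Its coding isoform shares 96.0% of stretches with other genes, chiefly Dynlt1f, and with the isoforms of both genes pooled the share was 68.7% ± 2.54 in place of 93.1% ± 2.94. The leading model, 493 bases at the start of the gene, took 72.3% of the TPM and 21.8% of the counts.

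Usp15 and Asb6 belong to the ubiquitin system. Usp15 (ENSMUSG00000020124.10, chr10:123105006-123196995, minus strand), a protease that removes ubiquitin, had 28.9, 37.8 and 35.7 TPM in 8 retained_intron isoforms and 6.5, 5.17 and 5.38 TPM in coding isoforms. Replicate 1 had the lowest retained_intron and the highest coding level. The share by counts was 59.3% ± 3.22, against 85.5% ± 3.39 by TPM. Its leading model has only 16 intronic bases among 1587 (1.01%), where it begins inside an intron, so nearly all of its sequence is also in exons of the coding isoforms. Usp4, a relative, had a share of 31.9% ± 1.43. Asb6 (ENSMUSG00000039483.10, chr2:30823097-30830333, minus strand), an ankyrin-repeat protein with a SOCS box, had 7.03, 7.05 and 7.5 TPM in retained_intron isoforms, 0.28, 0.27 and 0.29 TPM in its coding isoform, and 1.18 TPM on average in an isoform annotated as a decay target. Its level was the most even of the 23 genes, with an SD of 0.02 on the log2(TPM + 1) scale. Asb6-205 holds intron 4 of 5 whole and took 49.8% of the TPM and 75.0% of the counts, so here the measure by counts was the higher, at 88.0% ± 0.832.

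Several genes act at membranes or in lipid handling. Slc27a1 (ENSMUSG00000031808.7, chr8:71568882-71587302, plus strand), a fatty acid transport protein, was the extreme case. Its 3 retained_intron isoforms had 35.8, 42.9 and 46.3 TPM, and all 4 coding and the 2 other isoforms were listed at 0 in each library. The main coding isoform, Slc27a1-201, had upper interval bounds of 0.228, 0.832 and 0.324 TPM. By kallisto-format TPM the share was 98.9%, 90.9% and 94.4%, so that this quantification placed some level on other isoforms. The leading model, Slc27a1-202, starts inside an intron, 63.2% of the way along the gene, and runs to its 3′ end. It has 688 bases in no exon of a coding isoform. These include its last stretch, from 96.8% of the gene length on, which lies past the coding exons and not in an intron. Slc27a1-203 keeps introns 4 and 7 of 13 and took 22.8% of the TPM. Of the Slc27a genes, it was the one that reached 5 TPM with such an isoform.

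Tmem132a (ENSMUSG00000024736.15, chr19:10857822-10869940, minus strand) encodes a transmembrane protein. Its single retained_intron isoform, Tmem132a-203, had 65.0, 97.1 and 59.5 TPM, and its 3 coding isoforms together 3.26, 4 and 2.03 TPM. Replicate 2 was highest for both. The model is a single exon of 1371 bases that took 96.0% of the TPM and 88.2% of the counts. It spans an intron of 368 bases and a further one of 412 bases. The latter is an intron of the coding isoform Tmem132a-201 but lies in an exon of another coding isoform. Of its bases 225 (16.4%) lie opposite the end of Slc15a3, a lysosomal peptide transporter gene on the other strand with 167.6 ± 22.1 TPM. Slc15a3 was lowest in replicate 2, at 142.3 TPM, the library in which Tmem132a was highest. Whether the counting used the strand is not stated, so it is not known to which gene reads in the overlap were given. This holds for the coding level too: 38.8% of the stretches of the leading coding isoform, Tmem132a-202, occur in reverse in other genes. For Tmem132a-203 it was 14.5%.  Tmem214 (ENSMUSG00000038828.13, chr5:30868012-30879180, plus strand), also a membrane protein gene, had 8.84, 9.36 and 5.28 TPM in retained_intron isoforms and 0.19, 0.78 and 0.53 TPM in coding isoforms, with replicate 3 lowest in the former. Its leading model has 14 exons with 136 intronic bases (5.98%).

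The short Slc27a1 introns and the 2 donor sites of the Tmem132a model are shown because these genes had the largest shares among the more abundant ones. In the whole introns the first 6 and last 3 bases are in capitals. In the 30-base windows, which begin 10 bases before the intron, the first 6 intron bases are.
Slc27a1 intron 4, chr8:71579799-71579906: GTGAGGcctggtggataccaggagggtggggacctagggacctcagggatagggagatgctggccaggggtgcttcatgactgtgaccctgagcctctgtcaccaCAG
Slc27a1 intron 7, chr8:71580702-71580766: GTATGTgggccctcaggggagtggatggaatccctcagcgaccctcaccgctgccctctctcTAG
Tmem132a intron at chr19:10859756-10860123, donor: ctctatcgagGTGAGCcgccacaggggacg
Tmem132a intron at chr19:10859152-10859563, donor: cccaaagcagGTGATGgccgggggtgagag
The Slc27a1 introns, of 108 and 65 bases, were 62.0% and 63.1% G and C. The second Tmem132a donor belongs to the intron that is exonic in another coding isoform.

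The other 5 genes are Gm21188, 9030025P20Rik, Fam120b, Olfr56 and Spaca6. Gm21188 (ENSMUSG00000095609.2, chr13:120034605-120052194, minus strand) had 44.8, 72.6 and 43.0 TPM in retained_intron and 4.98, 2.47 and 3.03 TPM in coding isoforms, and replicate 2 had both the highest retained_intron and the lowest coding level. Its leading model shares 66.5% of stretches with other genes, led by Gm36161 at 52.2 ± 21.9 TPM. Gm36079, the gene most like the longest Gm21188 coding isoform, shares only 31.2% of the stretches of that isoform. Pooled with Gm36079, the Gm21188 share was 79.2%, 85.4% and 80.6%, under 80% in replicate 1. Gm36161 was not pooled. 9030025P20Rik (ENSMUSG00000116953.1, chr17:14978468-14991572, plus strand) had 17.8, 14.2 and 13.2 TPM in retained_intron isoforms and 1.45, 0.87 and 1.58 TPM in its coding isoform. Of the stretches of that isoform 84.6% occur in Ermard, a gene at 57.2 ± 6.06 TPM, and with both genes pooled the share was 58.2% ± 1.04 in place of 92.0% ± 2.49. It was also the one gene whose kept intron opens with GC in place of GT. Its donor window is shown for that reason, with the first 6 intron bases in capitals.
9030025P20Rik intron 7, chr17:14985911-14986717, donor: gtttttcctgGCAAGTccccccttactatg
Models with this intron held 91.1% of 9030025P20Rik TPM. Of the stretches inside the intron 42.1% also occur in other genes, and of those of the leading model 64.5%.

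Fam120b (ENSMUSG00000014763.8, chr17:15396202-15433583, plus strand), a coactivator of the nuclear receptor PPARG, had 7.80, 9.56 and 6.95 TPM in 2 retained_intron isoforms and 1.19, 0.98 and 1.05 TPM in its coding isoform. Its leading model, of 5787 bases, spans nearly the whole gene and is longer than the coding isoform. The share was nearly the same on the 3 scales, 88.1% of TPM, 89.3% of counts and 88.9% of kallisto-format TPM. Olfr56 (ENSMUSG00000040328.15, chr11:48978889-49135387, plus strand) is named as an olfactory receptor gene. Its single retained_intron isoform had 6.79, 7.91 and 9.55 TPM, and its 5 coding isoforms summed to 0.18, 0.36 and 0.30 TPM. The model overlaps 111 bases of Ifi47, an interferon-induced GTPase gene on the same strand at 54.0 ± 3.41 TPM. By kallisto-format TPM the share was 69.3% ± 1.01, the second lowest of the 23. Spaca6 (ENSMUSG00000080316.11, chr17:17827158-17843009, plus strand), a gene for a sperm protein needed for fertilisation, had 11.9, 5.43 and 6.17 TPM in retained_intron isoforms and 1.38, 0 and 0 TPM in coding isoforms. Replicate 1 was well above the other libraries, and the log2(TPM + 1) level had the largest SD of the 23 genes, 0.62. The gene carries the Mir99b, Mirlet7e and Mir125a hairpins, none of which lies in an exon of the retained_intron models.

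**Figure D5:**
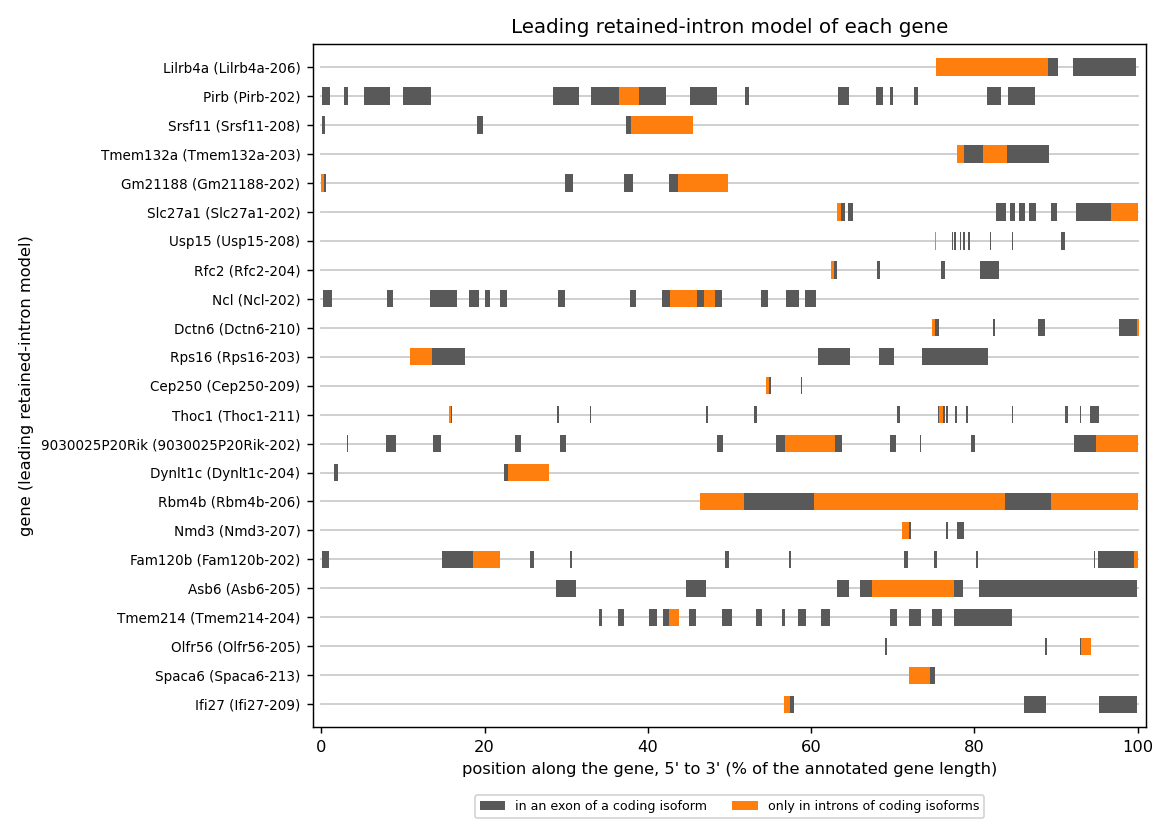
Leading retained_intron model of each gene along the annotated gene, 5′ to 3′, in percent of gene length. Grey blocks lie in exons of a coding isoform. Orange blocks, which the key gives as introns, lie in no exon of a coding isoform. Those at the 3′ end of Slc27a1, 9030025P20Rik, Rbm4b and Fam120b lie past the coding exons and not in introns. Pirb, Tmem132a, Ncl, Thoc1, 9030025P20Rik, Rbm4b and Asb6 have an orange block with grey directly on both sides. Many other models begin with an orange block, often a short one.

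Most of the leading models do not keep a whole intron. In 7 of the 23 (30.4%) the leading model spans an intron of a coding isoform from end to end, against 32.6% of the other 4084 genes: Pirb, Tmem132a, Ncl, Thoc1, 9030025P20Rik, Rbm4b and Asb6. In 14 (60.9%, against 66.2%) the model only begins or ends inside an intron, and the map of leading models shows how little intronic sequence some of them hold. The end at which this happens was counted as well. A start inside an intron was found in 13 (56.5%, against 37.8%), and an end inside an intron in 4 (17.4%, against 54.7%). The median share of bases outside every exon of a coding isoform was 27.7%, against 50.5%. Such bases include sequence past the ends of the coding isoforms as well as introns. The leading models were longer than in the other genes, with medians of 1761 and 1224 bases, and longer relative to the longest coding isoform, with median ratios of 0.539 and 0.428. The leading model was picked by TPM, which divides by length, so these features are not separate from the selection and are given without a test.

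Taking every retained_intron model of the 23 genes, 43 introns of coding isoforms in 14 genes were held whole, several of them overlapping alternatives at 1 site. Their median length was 368 bases (range 63 to 2696), against 278 over 4804 such introns of the other genes, and their median GC content was 47.3%, against 50.7%. Of the 43, 42 (97.7%) had GT at the start and AG at the end, against 98.4%. The donor letters GTAAGT or GTGAGT, searched on the transcribed strand at the first 6 intron bases, were found in 17 (39.5%), against 24.6%. Of the 17, 8 are Lilrb4a introns, several with a shared donor. With each donor site counted once, the letters were at 13 of 38 (34.2%), and at 9 of 32 (28.1%) without Lilrb4a, against 24.8% of 4460 in the other genes. Introns of up to 300 bases made up 44.2%, against 52.4%.

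By measures that the selection did not use, most of the genes kept a high share. By expected counts, 13 of the 23 had at least 80% in all 3 libraries, where 28 of the 4107 genes did (0.682%). The 13 are 56.5% of the 23 and 46.4% of the 28. By kallisto-format TPM, 17 of the 23 passed, and 23 of the 4107 genes did (0.56%). The 17 are 73.9% of each set. Both measures were passed by 11. Median shares over the 23 genes were 87.7% ± 1.26 by counts and 87.7% ± 1.73 by kallisto-format TPM, against 13.0% ± 0.185 and 27.5% ± 1.09 over the other 4084. These measures come from the same reads and annotation as the selection and are not independent of it.

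The share by counts was lower than that by TPM in 13 genes and higher in 9. The largest drops were in Nmd3 by 56.6 percentage points, Rfc2 by 33.6, Usp15 by 26.2, Cep250 by 21.1, Ncl by 17.6 and Thoc1 by 17.1. In each of these the leading model is shorter than the longest coding isoform, but so it is in all but 5 of the 23, Asb6 and Spaca6 with a higher share by counts among them. The 6 genes that fell under 80% by kallisto-format TPM in at least 1 library were Cep250, Dctn6, Nmd3, Olfr56, Rps16 and Srsf11.

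The median SD of the TPM share over libraries was 2.34 percentage points over the 23 genes (range 0 to 6.56), against 3.13 over the others. The selection bounds this spread, since each library had to reach 80%, and the value was 1.14 without replicate 1. For the share of expected counts the order was the other way, 2.10 against 1.70. After Ifi27, the widest were Spaca6 at 5.73, Rps16 at 4.79 and Nmd3 at 3.74. For gene levels the median SD was 0.26 on the log2(TPM + 1) scale, against 0.19 over the others. The median level was 23.6 ± 3.75 TPM, against 15.4 ± 1.27 over the other genes, or a difference of 0.58 ± 0.11 between medians on the log2(TPM + 1) scale. By kallisto-format TPM summed per gene the difference was 0.10. The 2 estimates differ in scale, so 0.10 and 0.58 are not directly comparable. Tmem132a-203, for example, had 23.4, 50.7 and 7.0 kallisto-format TPM in replicates 1, 2 and 3, against 65.0, 97.1 and 59.5 RSEM-format TPM. The RSEM-format difference turned to -0.08 when genes down to 1 TPM were taken into both sets. Of 17 gene lists chosen for this tissue, splicing held 1 of 69 genes, mRNA export 1 of 5 and cytosolic ribosomal proteins 1 of 64, and the other 14, of 7 to 50 genes, held none. At the background of 0.56%, counts of 0 or 1 in lists of this size say nothing about a class.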

How the data were processed

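Total RNA of the nuclear fraction was measured in 3 libraries of 1 group. Per the labels and the file headers, the authors' tables rest on transcriptome alignments to mm10 with GENCODE M21 (neither labels nor headers name the tool). The authors deposited expected counts, unnormalised estimated counts per gene or isoform. The deposited TPM values sum to the same total in each library, and the deposited FPKM are fragments per length and depth. The deposited interval bounds of TPM are the authors' score of uncertainty, with a level not given. A further deposited transcript table gives estimated counts and TPM with the columns that kallisto writes.

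Isoform classes were read from that table (95 of 141862 transcripts lacked one), and introns, overlaps and sequences from GENCODE M21, with coordinates counted from 1. Intronic means outside every exon of a coding isoform of the same gene. Counts of such bases also take in sequence past the ends of the coding isoforms. Introns under 20 bases were left out. Copies were searched as shared 31-base stretches on the same strand, and stretches that occur in reverse in other genes were counted apart. Levels were compared as log2(TPM + 1). Values are means ± SD over 3 libraries, and 1 group allowed no test. Named were all members, the 3 genes nearest each side of the threshold, list and family medians and sharing genes. The share calculation was checked on artificial data. Members, lists and rules were chosen with earlier results of these data known. Relatives by gene name were chosen after values were seen. Python 3.11.15, pandas 2.3.3, numpy 2.4.6 and matplotlib 3.10.9 were used. Alternatives covered the threshold, the level filter, the measure, the isoforms counted and each replicate left out.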

Additional observations from a re-analysis of the deposited data

How the results depend on the processing

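The number of genes was set by the threshold and the filter. It was 23 as reported, 74 at a threshold of 70% and 5 at 90%, 36 at a gene level of at least 1 TPM and 15 at 10 TPM. It was 38 by kallisto-format estimated counts (12 of the 23 among them) and 60 when only retained_intron and coding isoforms were counted, a change that can only raise a share. Leaving out isoforms under 1000 bases, an alternative chosen after seeing the data, gave 88 genes and lost 8 of the 23: Cep250, Dctn6, Dynlt1c, Ifi27, Nmd3, Rfc2, Rps16 and Srsf11. Expected counts, posterior mean TPM and kallisto-format TPM gave 28, 20 and 23. Without any 1 replicate it was 31 to 32; fewer libraries can only relax the condition, so this is no sign of stability. The median kallisto-format share was 90.2% with only retained_intron and coding isoforms, against 87.7%. The difference of median log2 levels, 0.58, was -0.075 with genes down to 1 TPM and 0.10 by kallisto-format TPM summed per gene, and 0.52 to 0.63 without 1 replicate. The median SD of the share, 2.34 percentage points, was 1.14 without replicate 1, 2.25 without replicate 2 and 1.68 without replicate 3. The causes were not tested. Pooling, also chosen after seeing the data, gave the shares of Lilrb4a, Gm21188, 9030025P20Rik and Dynlt1c stated above. Each was pooled with the gene sharing most stretches with its longest coding isoform. For Gm21188 that gene shared only 31.2% of them, against 84.6% to 100% for the others. With 3 libraries, intervals and SDs cover counting error and spread between these cultures only, and Ifi27, Spaca6, Rps16, Dynlt1c and Dctn6 had under 500 expected counts in every library. No paired analysis was possible because the 3 libraries form 1 group.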

Other observations

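Lilr4b, the close relative of Lilrb4a and likewise an immune receptor of the leukocyte immunoglobulin-like family, had 421.1, 631.8 and 497.5 TPM. Retained_intron isoforms held 66.4% ± 1.81 of its TPM and 83.8% ± 1.04 of its expected counts. It was thus under the threshold on one scale and above it on the other. Pira2, an activating relative of Pirb at 40.9 ± 7.28 TPM, has no isoform of this class in the annotation.

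The order of TPM and count shares seen in Nmd3 and Cep250 was turned around in other genes. Taf1d, a subunit of the factor that starts ribosomal RNA transcription, had 28.6% ± 1.89 of its TPM and 80.5% ± 0.152 of its counts in retained_intron isoforms. Sec11c, a subunit of the signal peptidase, had 48.4% ± 4.12 and 84.1% ± 2.07. In all, 15 genes passed 80% in every library by counts and were not among the 23. Of those that passed by kallisto-format TPM only, Ilf2 had 72.1% of RSEM-format and 86.6% of kallisto-format TPM. Arglu1, a gene with a described retained intron and an ultraconserved element, had 80.6% ± 10.3 of TPM and 86.4% ± 3.32 of counts, and missed the selection through the spread between libraries. These genes were chosen after their values were seen.

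Over a list of 7 genes with detained introns described elsewhere the median share was 42.8%, with Clk1 highest at 56.9%. None was among the 23, and with 0.56% of all 4107 genes passing, a count over 7 genes is uninformative. The list of 10 DNA repair genes had a median of 42.1%, and 23 lysosomal genes had 13.9%.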
